A study of Arabidopsis thaliana with 6 samples.

Results

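The 8 genes described here encode the enzymes that break purine rings down to glyoxylate and ammonia in Arabidopsis thaliana. They were taken by locus number from the 33602 loci of a gene expression table: XDH1 (AT4G34890), XDH2 (AT4G34900), UOX (AT2G26230), TTL (AT5G58220), ALN (AT4G04955), AAH (AT4G20070), UGLYAH (AT4G17050) and UAH (AT5G43600). XDH1, XDH2, ALN, AAH and UGLYAH lie on chromosome 4, UAH and TTL on chromosome 5 and UOX on chromosome 2. All 8 had a mean of at least 1 RPKM (reads scaled by the authors for gene length and library total), the level above which 26620 loci were tested. The set was put together because ALN differed between the crosses in these data, so the values that follow describe its 8 genes and no p-value is given for them.

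The tissue was F1 endosperm, the nourishing tissue of the seed, at 4 days after pollination, and the RNA came from its nuclei, purified by INTACT through a tagged nuclear envelope protein. Cm x L had as mother TEmob, a Columbia-0 line with the INTACT tag, and Landsberg erecta (Ler) as father. L x Cm had as mother Ler carrying the pi-1 allele of PISTILLATA, a mutant without stamens, and TEmob as father. TEmob is 1 diploid line whose ancestors were germinated on α-amanitin and 40 µM zebularine, an inhibitor of DNA methylation, and kept at 37 °C. It was then passed through haploids from a cross to a cenh3 mutant with CENH3-tailswap and doubled with colchicine. All 6 libraries carry TEmob chromosomes, so the comparison is between directions of the cross and not with an untreated Columbia line. Each cross had 3 libraries; the labels do not say whether these came from separate plants, so their spread may be technical.

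Purine breakdown starts when xanthine dehydrogenase, a molybdenum enzyme of the cytosol, oxidizes hypoxanthine and xanthine to urate. In the peroxisome, urate oxidase and the allantoin synthase TTL turn urate into allantoin, a nitrogen-rich ureide. Allantoinase, allantoate amidohydrolase, ureidoglycine aminohydrolase and ureidoglycolate amidohydrolase then open and strip allantoin in the endoplasmic reticulum, releasing its nitrogen as ammonia for reuse. ALN has also been described in Arabidopsis as a maternally expressed imprinted gene of the endosperm that lowers seed dormancy. Reads of the maternal and the paternal allele are not separated in the table, so imprinting itself is not measured.

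The libraries held 21.2 to 29.2 M reads, as recovered from the steps in the RPKM values. On exon lengths of the annotation, the 8 genes had an estimated 169 to 4118 reads per library, and none was listed at 0 in any library, where 1005 to 10084 of all loci were. All 10 endosperm markers, among them FWA and PHE1, were above 0 in every library. They summed to 426 to 486 RPKM in Cm x L against 562 to 632 in L x Cm, without overlap. Limma called 1 of them, FIS2, higher in Cm x L, 10% of the list beside 6.73% of all tested loci. It called 2 lower, 20% beside 18.3%: MINI3 (12.8 to 43.4 against 109 to 129 RPKM) and IKU2 (0.524 to 3.03 against 4.14 to 7.06 RPKM). MINI3 had the largest gap in means of the 10, at 23.2 against 117 RPKM. Without overlap, 2 of the 10 lay above in Cm x L, beside 15.7% of all tested loci, and 3 below, beside 29.8%. The 2 above were FIS2 and FWA (107 ± 15.7 against 78.5 ± 6.16 RPKM, not called). Markers of neighbouring tissues were present too and differed between libraries: 10 seed coat markers summed to 212 to 748 RPKM in Cm x L against 651 to 967 in L x Cm. The 6 pollen markers summed to 61.1 to 677 RPKM in Cm x L against 637 to 2363 in L x Cm, and the 7 embryo markers to 139 to 326 and 143 to 166 RPKM. Of these lists, 1 seed coat, 3 pollen and 4 embryo genes were called lower in Cm x L by limma and 1 embryo gene, LEC1, higher. The lower calls are 10%, 50% and 57.1% of their lists beside 18.3% of all tested loci. The higher call is 14.3% beside 6.73%. The 4 lower embryo genes, STM, CUC3, PLT1 and WOX9, were at 0 to 3.53 RPKM in Cm x L against 5.20 to 28.0 in L x Cm. WOX2, not called, had 0.443, 0.948 and 0 RPKM in Cm x L against 7.01, 1.30 and 1.33 RPKM in L x Cm. WOX8, not called either, had a higher mean in Cm x L (116 against 52.8 RPKM), with overlapping libraries. In bulk RNA of this kind, fewer cells of a type and less RNA per cell cannot be told apart.

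The steps after allantoin held the 3 genes with the higher values in Cm x L. ALN, allantoinase, which opens the allantoin ring to allantoate, had 73.6, 67.2 and 62.6 RPKM in the Cm x L libraries, given here and throughout in the order of replicates 1 to 3, against 23.6, 20.2 and 23.3 RPKM in the L x Cm libraries. The crosses were far apart, the lowest Cm x L library lying well above the highest L x Cm library. The means were 67.8 ± 5.55 and 22.4 ± 1.85 RPKM (SD, n = 3 per cross), a ratio of 3.03, and the difference in log2(RPKM + 1), Cm x L minus L x Cm, was 1.56 (SE 0.15). Among all tested loci, 0.740% had a difference at least that high. The set was chosen from this contrast, so this share, like those below for UAH, AAH and UOX, is description and no test.

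UAH, ureidoglycolate amidohydrolase, which makes glyoxylate at the end of the pathway, had 17.3, 18.2 and 18.2 RPKM in Cm x L against 7.71, 6.60 and 9.01 RPKM in L x Cm. Its 3 Cm x L libraries were nearly alike and all lay above the L x Cm libraries. The ratio of the means was 2.30 and the log2 difference 1.12 (SE 0.19), a difference that 2.49% of tested loci reached or passed. AAH, allantoate amidohydrolase, which acts directly after allantoinase, had 58.8, 56.6 and 66.4 RPKM in Cm x L against 34.2, 34.6 and 50.4 RPKM in L x Cm. The crosses did not overlap, but L x Cm replicate 3 came close to the Cm x L range. The ratio of the means was 1.53 and the log2 difference 0.62 (SE 0.19), and 10.5% of tested loci had at least that difference.

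UGLYAH, ureidoglycine aminohydrolase, sits between AAH and UAH in the pathway and did not share their pattern. It had 34.6, 30.1 and 53.1 RPKM in Cm x L against 31.9, 28.5 and 50.9 RPKM in L x Cm, so replicate 3 was the highest of both crosses and the ranges overlapped almost wholly. The log2 difference was 0.08 (SE 0.28). The seed coat sum was also highest in replicate 3 of each cross, at 212, 274 and 748 RPKM in Cm x L against 651, 813 and 967 RPKM in L x Cm; its part in the UGLYAH values was not tested.

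**Figure D1:**
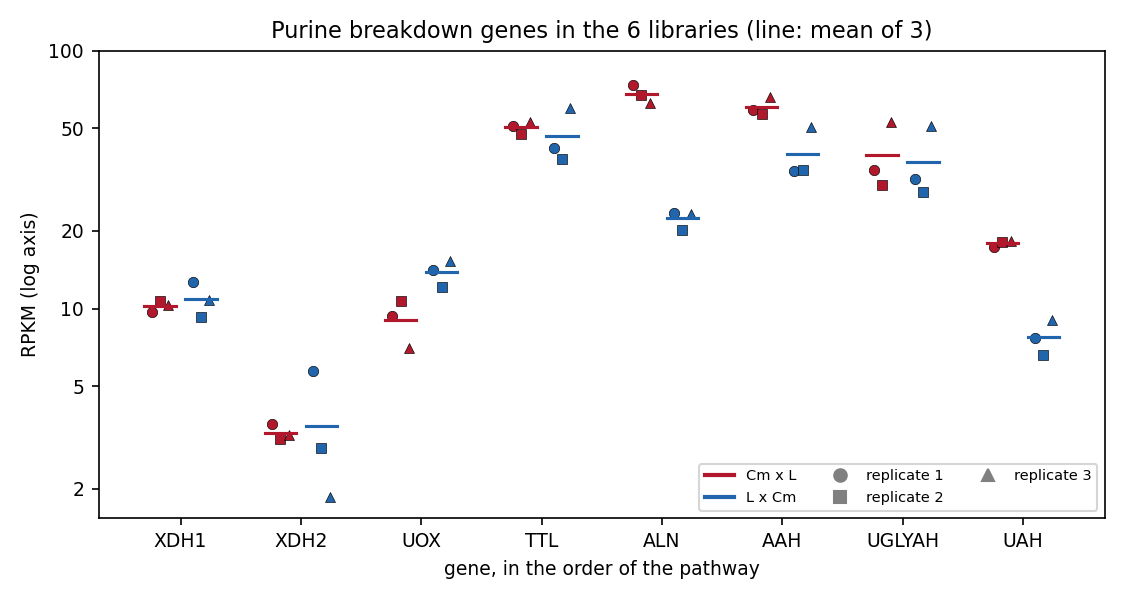
RPKM (log axis) of the 8 genes in pathway order, with the 3 libraries of each cross as points and their mean as a line. ALN, AAH and UAH lie higher in every Cm x L library (red) than in any L x Cm library (blue), UOX lies lower, and the other genes overlap.

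The steps up to allantoin showed no higher values in Cm x L that stood clear of L x Cm. XDH1, the main xanthine dehydrogenase of Arabidopsis, had 9.71, 10.7 and 10.4 RPKM in Cm x L against 12.7, 9.30 and 10.8 RPKM in L x Cm, with a log2 difference of −0.07 (SE 0.20). XDH2, its tandem copy, had 3.55, 3.12 and 3.24 RPKM in Cm x L against 5.75, 2.87 and 1.86 RPKM in L x Cm. The 3 L x Cm libraries of XDH2 spanned the Cm x L values on both sides, and the log2 difference was 0.03 (SE 0.37). The coding sequences of the pair were 92.8% identical over 4062 aligned bases. Of the 50-base windows within exons, 7.96% in XDH1 and 8.25% in XDH2 occurred more than once in the genome, against 0 windows in the other 6 genes. How the authors' counting treated such reads is not given, so the split between XDH1 and XDH2 is uncertain to that extent.

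UOX, urate oxidase, went the other way from ALN. It had 9.32, 10.7 and 7.03 RPKM in Cm x L against 14.1, 12.1 and 15.3 RPKM in L x Cm, so every Cm x L library lay below every L x Cm library. The L x Cm mean was 1.54 times the Cm x L mean, and the log2 difference was −0.58 (SE 0.22). Such a gap without overlap was common, being found at 29.8% of all tested loci and at 38.0% of those under 20 RPKM, and 37.4% of tested loci had a difference at least as far down. UOX overlaps AT2G26240 on the opposite strand by 99 bases, and reads there cannot be assigned without strand; AT2G26240 had 33.7 ± 7.02 RPKM in Cm x L against 32.5 ± 7.31 in L x Cm (n = 3 each).

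TTL, the allantoin synthase, had 51.1, 47.4 and 52.7 RPKM in Cm x L against 42.0, 38.1 and 60.1 RPKM in L x Cm. The highest and the lowest library were both of L x Cm, and the log2 difference was 0.13 (SE 0.19). Both neighbours of TTL were called higher in Cm x L, while the libraries of TTL overlapped. AT5G58210, which overlaps it by 17 bases on the opposite strand, had 59.8 ± 7.99 against 32.5 ± 3.56 RPKM (log2 difference 0.86, SE 0.17, limma adjusted p = 0.014). MSI1, a Polycomb subunit gene 10 bases away on the opposite strand, had 50.4 ± 2.23 against 28.4 ± 1.21 RPKM (limma adjusted p = 0.0099).

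In the fit of all 6 libraries, 3 of the 8 genes (ALN, AAH and UAH) were past the threshold of adjusted p under 0.05 as higher in Cm x L, beside 6.73% of all tested loci, and 0 as lower, beside 18.3%. Split at a mean of 20 RPKM, ALN and AAH stand beside 14.1% of loci called higher above that level and UAH beside 3.28% below it. The same 3 genes had every Cm x L library above every L x Cm library, beside 15.7% of all tested loci, or 29.6% at 20 RPKM and more and 9.14% under it. Since the set was chosen from this contrast, these counts describe it and nothing is read from them. The 13 alternative fits reuse the same libraries, so they show only how the values depend on processing and are no separate support. ALN and UAH were past the threshold in all 13 and AAH in 3 of them. AAH passed in 1 of the 6 fits that left out a library. The median log2 difference was 0.11 over the 8 genes and −0.22 over all tested loci. It was 0.14 over loci that averaged 20 RPKM or more, where ALN, AAH, UGLYAH and TTL lie, and −0.55 below that level, where UAH, XDH1, XDH2 and UOX lie.

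Other-tissue markers moved with direction beside these values, and no Cm x L library matched L x Cm on all of the lists. Cm x L replicate 3, with 62.6 RPKM of ALN and 18.2 of UAH, had a seed coat sum of 748 RPKM, within the L x Cm range, but a pollen sum of 61.1 RPKM, far under it. Its embryo sum of 139 RPKM came almost wholly from LEC1 (69.5 RPKM) and WOX8 (66.2 RPKM), and its STM, WOX9, PLT1 and CUC3 values lay below every L x Cm library. Cm x L replicate 2, with 67.2 RPKM of ALN and 18.2 of UAH, had a pollen sum of 677 RPKM, within the L x Cm range, and a seed coat sum of 274 RPKM, under it. The part of other tissues, and of the lower endosperm marker sum in Cm x L, in the ALN and UAH differences was not tested. For AAH the seed coat sum and the gene were both highest in replicate 3 of each cross, and the part of seed coat RNA was not tested. Direction of the cross also sets whether TEmob was mother or father and whether the mother carried pi-1. With it go which parent brought the INTACT tag, which accession gave the larger genome dose and how many reads match the Columbia reference. These cannot be told apart from direction.

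Levels per length were ordered differently in the crosses. In Cm x L the order of means was ALN (67.8 RPKM), AAH (60.6), TTL (50.4), UGLYAH (39.3), UAH (17.9), XDH1 (10.3), UOX (9.02) and XDH2 (3.31). Libraries overlapped between ALN and AAH, between TTL and UGLYAH and between XDH1 and UOX, so these neighbours in the order did not differ beyond their spread. In L x Cm the order was TTL (46.7 RPKM), AAH (39.7), UGLYAH (37.1), ALN (22.4), UOX (13.9), XDH1 (10.9), UAH (7.77) and XDH2 (3.49). There the ranges of TTL, AAH and UGLYAH overlapped in turn, as did those of UOX and XDH1. Within each L x Cm library, however, TTL ranked 1, UOX ranked 5 and XDH1 ranked 6. AAH ranked above UGLYAH in replicates 1 and 2 and below it in replicate 3. ALN ranked 1, 1 and 2 in the Cm x L libraries and 4 in each L x Cm library. UAH ranked 5 in each Cm x L library and 7 in each L x Cm library.

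Ratios of genes within a library do not depend on how libraries are scaled to each other. The ratio of ALN to TTL, which make and consume allantoin between them, was 1.44, 1.42 and 1.19 in Cm x L against 0.562, 0.531 and 0.388 in L x Cm. Allantoinase RNA thus exceeded allantoin synthase RNA per length in every Cm x L library and was below it in every L x Cm library. The ratio of ALN to AAH was 1.25, 1.19 and 0.943 in Cm x L against 0.691, 0.585 and 0.462 in L x Cm, again without overlap. ALN to UAH was closer between the crosses, at 3.79 ± 0.42 and 2.90 ± 0.28 (n = 3 each), though the libraries still did not overlap. ALN to UOX had the widest gap of the 9 ratios computed, at 7.69 ± 1.32 and 1.62 ± 0.09. The set was chosen because ALN differed between the crosses, so the gaps of these ratios are description and no test. Among the ratios without ALN, XDH1 to XDH2 overlapped between the crosses. AAH to UGLYAH, UAH to UGLYAH and UOX to TTL did not. How often other pairs of loci separate in this way was not computed.

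**Figure D2:**
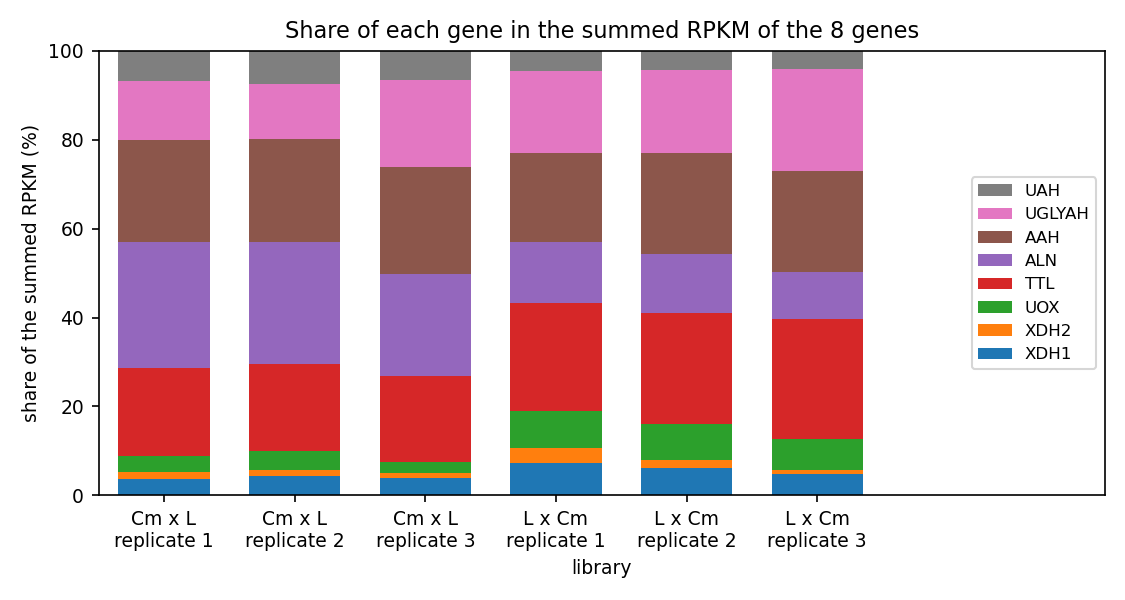
Share (%) of each gene in the summed RPKM of the 8 genes, for each library, stacked in pathway order from XDH1 at the bottom. ALN takes 22.9% to 28.5% in Cm x L against 10.5% to 13.7% in L x Cm, while TTL takes 19.3% to 19.8% and 24.4% to 27.1%.

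Spread between libraries also differed among the genes. ALN had a coefficient of variation of 8.18% in Cm x L against 8.27% in L x Cm, and UAH 2.80% and 15.5%. UGLYAH varied most in Cm x L, at 31.0%, and XDH2 in L x Cm, at 57.8%. XDH2 was the gene with the fewest reads, an estimated 169 in L x Cm replicate 3 and 673 in L x Cm replicate 1, so its gap between libraries is larger than counting alone gives. Summed over the 8 genes, RPKM was 258, 244 and 274 in Cm x L against 172, 152 and 222 in L x Cm.

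The genes on either side of ALN showed no such gap in its direction. GRXS17, a glutaredoxin gene downstream on the same strand, had 18.8 ± 4.17 RPKM in Cm x L against 18.0 ± 2.26 in L x Cm (log2 difference 0.04, SE 0.21, limma adjusted p = 0.89). AT4G04957, upstream on the same strand, was near the detection limit, at 0.389, 0.964 and 0 RPKM in Cm x L against 2.51, 1.26 and 1.29 RPKM in L x Cm, and did not pass the test. XDH1 touches AT4G34881 on the opposite strand by 1 base. That gene was higher in Cm x L (64.0 ± 13.6 against 36.3 ± 3.17 RPKM, limma adjusted p = 0.025), whereas XDH1 had overlapping values.

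The 5 loci whose profile over the 6 libraries was most like that of ALN were SBE2.1, AT1G61490, ACHT5, FSD2 and AT3G26085. Likeness was the mean absolute distance between log2(RPKM + 1) values, each centred on the mean of its gene, and ran from 0.08 to 0.12. SBE2.1, a starch branching enzyme gene, had 281, 268 and 235 RPKM in Cm x L against 90.4, 96.7 and 95.5 RPKM in L x Cm. FSD2, a plastid iron superoxide dismutase gene, had levels close to those of ALN as well, at 71.8, 52.7 and 63.8 against 25.4, 19.8 and 24.5 RPKM. ACHT5, a thioredoxin gene of the plastid, had 190 ± 24.0 against 59.8 ± 8.17 RPKM. They were picked for this likeness, so their difference between crosses is no separate result.

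Around the pathway, 59 other genes in 7 lists by role were read from the same fit. Of the 57 that could be tested, 3 were called higher and 6 lower in Cm x L, which is 5.26% and 10.5% beside 6.73% and 18.3% of all tested loci. Their median log2 difference was 0.05. Neither share of calls was above that of all loci, so the lists together did not stand out by count.

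The 14 genes of purine synthesis held all 3 higher calls, which is 21.4% of the list beside 6.73% of all tested loci. All 3 were among the 4 genes of the list that averaged 20 RPKM or more, a level where 14.1% of loci were called higher. Without overlap, 6 of the 14 lay above in Cm x L, beside 15.7% of all tested loci, and 1 below, beside 29.8%. The list also held 1 lower call (7.14% beside 18.3% of all tested loci). Its median log2 difference was 0.49, beside 0.14 over loci at 20 RPKM and more and −0.55 under it. The list was not tested as a set. PUR5, aminoimidazole ribonucleotide synthase, had 113, 95.2 and 99.6 RPKM in Cm x L against 50.8, 39.1 and 46.7 RPKM in L x Cm (log2 difference 1.16, SE 0.16, limma adjusted p = 0.0069). Every Cm x L library of PUR5 had more RPKM than any L x Cm library, and the ratio of the means was 2.25. PURK, listed for the carboxylation step that follows, had 29.2 ± 3.12 against 15.0 ± 1.72 RPKM (0.92, SE 0.17, limma adjusted p = 0.012). ATIC, listed for the last steps to inosine monophosphate, had 41.8 ± 3.44 against 26.9 ± 3.65 RPKM (0.62, SE 0.16, limma adjusted p = 0.031). ASE3, a minor amidophosphoribosyltransferase gene of the first step, was lower, at 0.321, 1.01 and 0 RPKM in Cm x L against 6.83, 3.63 and 1.39 RPKM in L x Cm (limma adjusted p = 0.047). The PUR5 call held in all 6 fits without 1 library, that of PURK in 5 (adjusted p = 0.058 without Cm x L replicate 1), that of ATIC in 2 and that of ASE3 in 1.

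The 8 genes that lead from nucleotides to xanthine held 1 call, a lower one, which is 12.5% beside 18.3% of all tested loci. XMPP, listed for the phosphatase that removes phosphate from xanthosine monophosphate, was lower, at 13.9, 21.3 and 7.86 RPKM in Cm x L against 56.9, 51.4 and 32.2 RPKM in L x Cm (log2 difference −1.70, SE 0.35, limma adjusted p = 0.016). The crosses did not overlap, as at 29.8% of all tested loci in this direction, and the L x Cm mean was 3.27 times that of Cm x L. This call held in 3 of 6 fits without 1 library and in 10 of 13 alternatives in all. In 4 genes of this list (NSH1, NSH2, IMPDH1 and IMPDH2, named for this after their values were seen) the Cm x L libraries lay above L x Cm, a pattern found at 15.7% of all tested loci, at 29.6% of those at 20 RPKM and more and at 9.14% of those under it. None of the 4 passed the test. The median of the list was 0.43.

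Salvage, which returns bases and nucleosides to nucleotides, held 1 call among 8 genes, a lower one (12.5% beside 18.3% of all tested loci). ADK1, an adenosine kinase with the highest mean of the list, had 66.0 ± 14.8 RPKM in Cm x L against 47.7 ± 6.74 in L x Cm (limma adjusted p = 0.13). APT4, an adenine phosphoribosyltransferase gene, was lower, at 0, 0.788 and 0 RPKM in Cm x L against 1.26, 3.29 and 3.10 RPKM in L x Cm (limma adjusted p = 0.042). It lay at a level where 23.7% of loci were called lower, and its call held in 2 of 6 fits without 1 library. The list median was −0.11.

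Of the 10 transporter genes 8 could be tested and 1 passed, as lower, which is 12.5% beside 18.3% of all tested loci. PLUTO, a plastid nucleobase transporter listed as NCS1 in the annotation, was lower, at 9.70, 12.6 and 15.9 RPKM in Cm x L against 48.2, 36.1 and 25.2 RPKM in L x Cm (log2 difference −1.43, SE 0.27, limma adjusted p = 0.013). All Cm x L libraries were below all L x Cm libraries, as at 29.8% of all tested loci, and the call held in all 13 alternatives. ENT1, a nucleoside transporter, had the highest mean of the list, at 33.6 ± 2.74 against 28.5 ± 1.69 RPKM (limma adjusted p = 0.27). Among the ureide permeases, which carry allantoin and related bases, UPS5 was the most abundant, at 15.9, 17.8 and 7.31 RPKM in Cm x L against 26.3, 14.7 and 5.03 RPKM in L x Cm (named after its values were seen). Its replicates spread more widely than the crosses did. UPS1 to UPS4 were at 0 to 3.79 RPKM in every library. Their means, in that order, were 0.817, 1.23, 0.222 and 0.359 RPKM in Cm x L against 2.49, 2.26, 0.804 and 1.10 in L x Cm. UPS1 and UPS2 were not called, and UPS3 and UPS4 were too low to be tested. The list median was −0.60, beside −0.22 over all tested loci and −0.55 over those under 20 RPKM. Of the 8 tested genes, 3 lay below and 1 above in Cm x L without overlap.

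Genes of urea metabolism, which is fed by arginine breakdown and not by the plant ureide route, held 2 calls among 7. Both were lower, 28.6% of the list beside 18.3% of all tested loci. UREG, an accessory protein that inserts nickel into urease, was lower in Cm x L, at 17.5, 16.5 and 20.4 against 36.7, 31.0 and 43.3 RPKM (log2 difference −0.98, SE 0.18, limma adjusted p = 0.012). The crosses were clearly apart, the L x Cm mean being 2.04 times that of Cm x L, and the call held in all 13 alternatives. ARGAH2, an arginase gene, was lower as well, at 4.36 ± 2.21 against 12.0 ± 2.94 RPKM (limma adjusted p = 0.028), and its call held in 1 of 6 fits without 1 library.

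The molybdenum cofactor, which xanthine dehydrogenase needs, and pyrimidine breakdown held 0 calls among 7 and 5 genes by limma, and 0 of these had an unadjusted p under 0.05. Of all tested loci, 6.73% were called higher and 18.3% lower. CNX3, a cofactor synthesis gene, had 54.6 ± 5.51 against 48.2 ± 4.41 RPKM. CDA, cytidine deaminase, had 83.1, 99.6 and 130 RPKM in Cm x L against 86.6, 103 and 146 RPKM in L x Cm, with replicate 3 the highest of both crosses, as for UGLYAH. The list medians were 0.05 and −0.10.

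**Figure D3:**
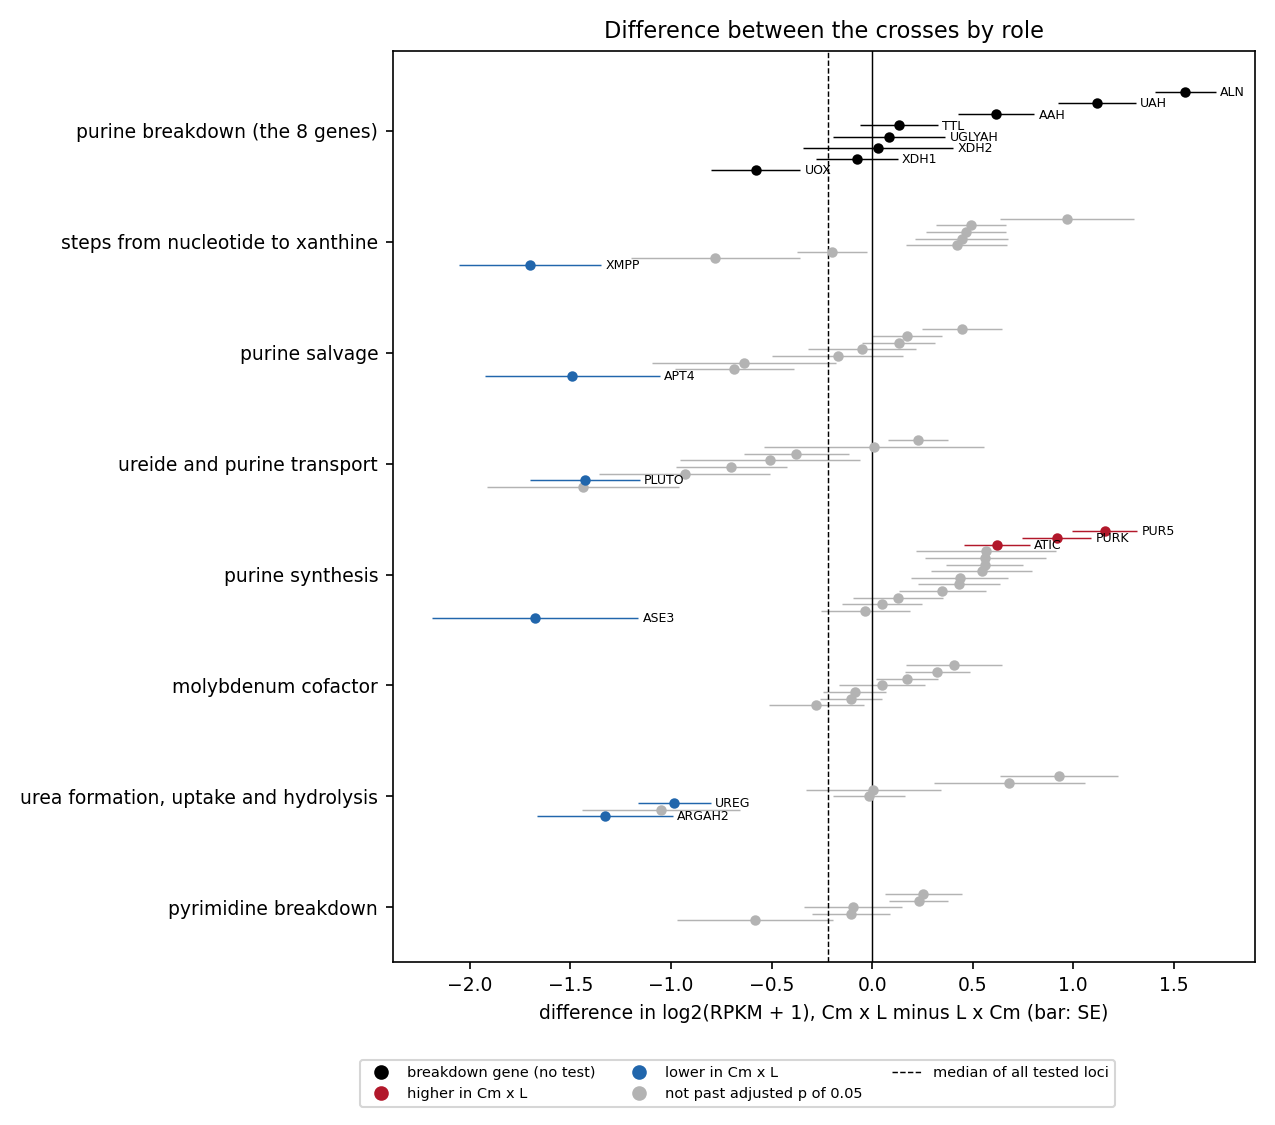
Difference in log2(RPKM + 1) between the crosses (points, with SE as bars) for the 8 breakdown genes (black) and for 57 other genes by role. The other genes are coloured where limma's adjusted p was under 0.05. The 8 genes were in the same fit but are marked as no test, since no p-value is given for them. ALN (1.56) and UAH (1.12) lie at the right of their row, the 3 higher calls outside it are purine synthesis genes, and the dashed line marks the median of all tested loci (−0.22).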

How the data were processed

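Poly(A) RNA of INTACT-purified endosperm nuclei was sequenced from 3 libraries per cross. Reads were aligned with TopHat2 version 2.1.0 to TAIR10, per the submitters' processing notes. How reads were counted, and whether by strand, is not given in the sources used here. RPKM values for 33602 loci were deposited by the authors; each column name holds the parent order and a replicate number, which assigned it to a sample and left 0 columns over. Symbols, neighbours and exon lengths came from the RefSeq annotation of TAIR10.1, whose coordinates are not printed.

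Values were analysed as log2(RPKM + 1) in limma 3.58.1 (R 4.3.3), with an intensity trend, cross direction as the only term and 2-sided tests. Loci averaging 1 RPKM or more were tested, and Benjamini-Hochberg adjusted p-values ran over all 26620 of them, with a threshold of 0.05. The fit was tested on simulated data. Depth was recovered from the RPKM steps of single-exon pseudogenes: 98.8% to 100% of the low values then held whole reads within 0.02, a share the step was chosen to maximise. Limits from read numbers cover counting error only.

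The genes and lists were chosen with earlier results of these data known, so the 8 genes get no p-value. Other genes were named if they passed the threshold or had the highest mean of their list. A listed symbol counted if the annotation held it or gave the locus no other symbol. It also counted if the synonyms or product name gave the same enzyme or transporter. On this rule 0 loci were dropped. Also named were the loci beside ALN or overlapping a gene of the pathway, and the 5 loci most like ALN. MSI1, 10 bases from TTL without overlap, was named outside this rule. Neighbours of AAH, UGLYAH and UAH were given no values. Figures and summaries used Python 3.11.15, pandas 2.3.3, numpy 2.4.6 and matplotlib 3.10.9, and coding sequences were aligned with mafft 7.526. Alternatives were other pseudocounts, filters and scalings, a fit without the trend, a replicate block and fits without each library.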

Additional observations from a re-analysis of the deposited data

How the results depend on the processing

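The log2 differences of ALN and AAH stayed above 0.5 and that of UAH above 0.8 in all 13 alternatives. With a pseudocount of 5 RPKM ALN had 1.41 and UAH 0.85. After quantile normalization UAH had 1.33 and XDH2 0.93 (0.03 as deposited), and the median of all tested loci moved from −0.22 to 0.04; XDH2 has the lowest level of the 8 genes. With 1 library left out, ALN ran from 1.49 to 1.61, AAH from 0.52 to 0.80, UAH from 1.02 to 1.22, UOX from −0.70 to −0.43 and TTL from 0.003 to 0.32. UGLYAH ran from −0.15 to 0.33, XDH1 from −0.18 to 0.03 and XDH2 from −0.25 to 0.37, so these 3 have no fixed sign. XDH2, APT4 and ASE3 are left out by a filter at 5 RPKM. The cause of these shifts was not tested.

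All tested loci gave 1792 higher and 4870 lower calls. With that filter 1322 were lower, and after quantile normalization 1739. With 1 library left out there were 359 to 2280 higher calls (359 without Cm x L replicate 1) and 1243 to 5231 lower calls. The other purine-related genes then held 1 to 4 higher and 2 to 6 lower calls, against 3 and 6, and 3 lower calls after quantile normalization. Higher calls among them fell to 1 without Cm x L replicate 1; lower calls fell to 2 without that library or L x Cm replicate 2 and to 3 without L x Cm replicate 1. The 8 genes held 2 to 3 higher calls. Same-numbered libraries of the crosses correlated in their deviations at 0.08, 0.15 and 0.20. Differently numbered ones lay at −0.23 to −0.02, except L x Cm replicate 1 with Cm x L replicate 2 (0.12). The labels do not say whether the numbers mark pairs or batches. The main fit held no pairing, and a shared effect of replicate number is not excluded. With replicate number as a block, 4 other purine-related genes were higher and 6 lower, and 3 of the 8 genes were higher.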
